A study of Mus musculus with 11 samples.

Results

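Oxidative phosphorylation was represented by 93 genes in the hypothalamus of male mouse offspring. The rule for members used symbol and detection alone, but was set with earlier results of these data known. It took genes named for a nuclear-encoded subunit of complexes I to IV or of the ATP synthase, or for a complex I assembly factor. Each needed a probe that 5 or more of the 11 arrays showed well above background. Of 94 such genes with a named probe 93 passed, against 17188 genes tested in all, and each of the 93 was well above background on all 11 arrays. The remaining gene, Cox8c, was well above background on 1 HFD array and 1 CO array. A further 22 symbols of the same form, among them Ndufb1, Ndufb4b, Ndufb4c and 19 pseudogenes, were not analysed here because no probe carried their name. The members comprised 38 genes named for complex I, 8 complex I assembly factors, 4 of complex II, 9 of complex III, 17 of complex IV and 17 of the ATP synthase, also called complex V.

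HFD samples were 6 hypothalami of P21 sons of C57BL/6N dams fed a high-fat diet from weaning through pregnancy and lactation, and CO samples were 5 hypothalami of P21 sons of dams kept on standard chow, which the labels abbreviate as SD. The sources name no transgene or deletion, every sample was male, and each was run on an array of its own in 1 dye. The labels do not tie arrays to dams, and the CO titles share a leading number in 3 and in 2 samples, so p-values measure only the spread between these samples. The HFD arrays lay on other slides than the CO arrays (2 slides each) and were scanned 337 days later with another extraction protocol of the same software, so in every comparison that follows maternal diet and scanning session cannot be told apart.

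The respiratory chain passes electrons from NADH, at complex I, and from succinate, at complex II, through ubiquinone to complex III, then through cytochrome c to oxygen at complex IV. Complexes I, III and IV pump protons across the inner mitochondrial membrane, and the ATP synthase lets them flow back to make ATP, the main energy supply of neurons. Most subunits are encoded in the nucleus and joined to a few catalytic ones made inside the mitochondrion. Of the 26 names and aliases searched for those mitochondrially encoded subunits, no probe carried any, so they were not analysed here.

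Levels are log2 processed signals relative to the 75th percentile of each array, so a value of 0 stands at that percentile. Each gene was read from its brightest probe, and levels of different probes are not comparable. Differences are HFD minus CO, and a gene was called when limma's p-value, after Benjamini-Hochberg adjustment over all 17188 genes, was under 0.05. HFD arrays had 71.8 to 77.4% of mouse spots well above background, against 82.5 to 85.7% on CO arrays, and no mouse spot was saturated.

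On this scale 22 members were higher and 19 lower in HFD than in CO hypothalamus, and 52 were not called. The called share was 44.1%, while 66.4% of all genes tested were called, 22.2% of them higher and 44.1% lower. The members' median difference was 0.01, against -0.17 over all genes. Most members were bright, with 78 of 93 among the 4297 brightest genes, where 63.0% of genes were called and the median difference was -0.12. In 13 members every HFD sample was above every CO sample and in 13 every HFD sample was below, which is 28.0% of the members against 46.6% of all genes (16.1% above and 30.5% below).

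Changes were small. Cyc1 was the 1 member that differed by more than 2-fold, and 9 of the 41 called members differed by at least 0.5 on the log2 scale. For the 52 members not called the 95% intervals of the difference lay within -0.41 and 0.44. In a bulk sample fewer cells of a type and less RNA per cell cannot be told apart.

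The direction of these calls is relative to the scale. With scaling to each array's median 24 members were called higher and 12 lower. With scaling to the spike-in RNA added at labelling none was called higher and 87 were called lower, the median of all genes moved by that change of scale to -0.85 and that of the members to -0.66, and all 22 members given as higher had a negative difference. The words higher and lower are therefore used of the 75th percentile scale throughout.

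**Figure D1:**
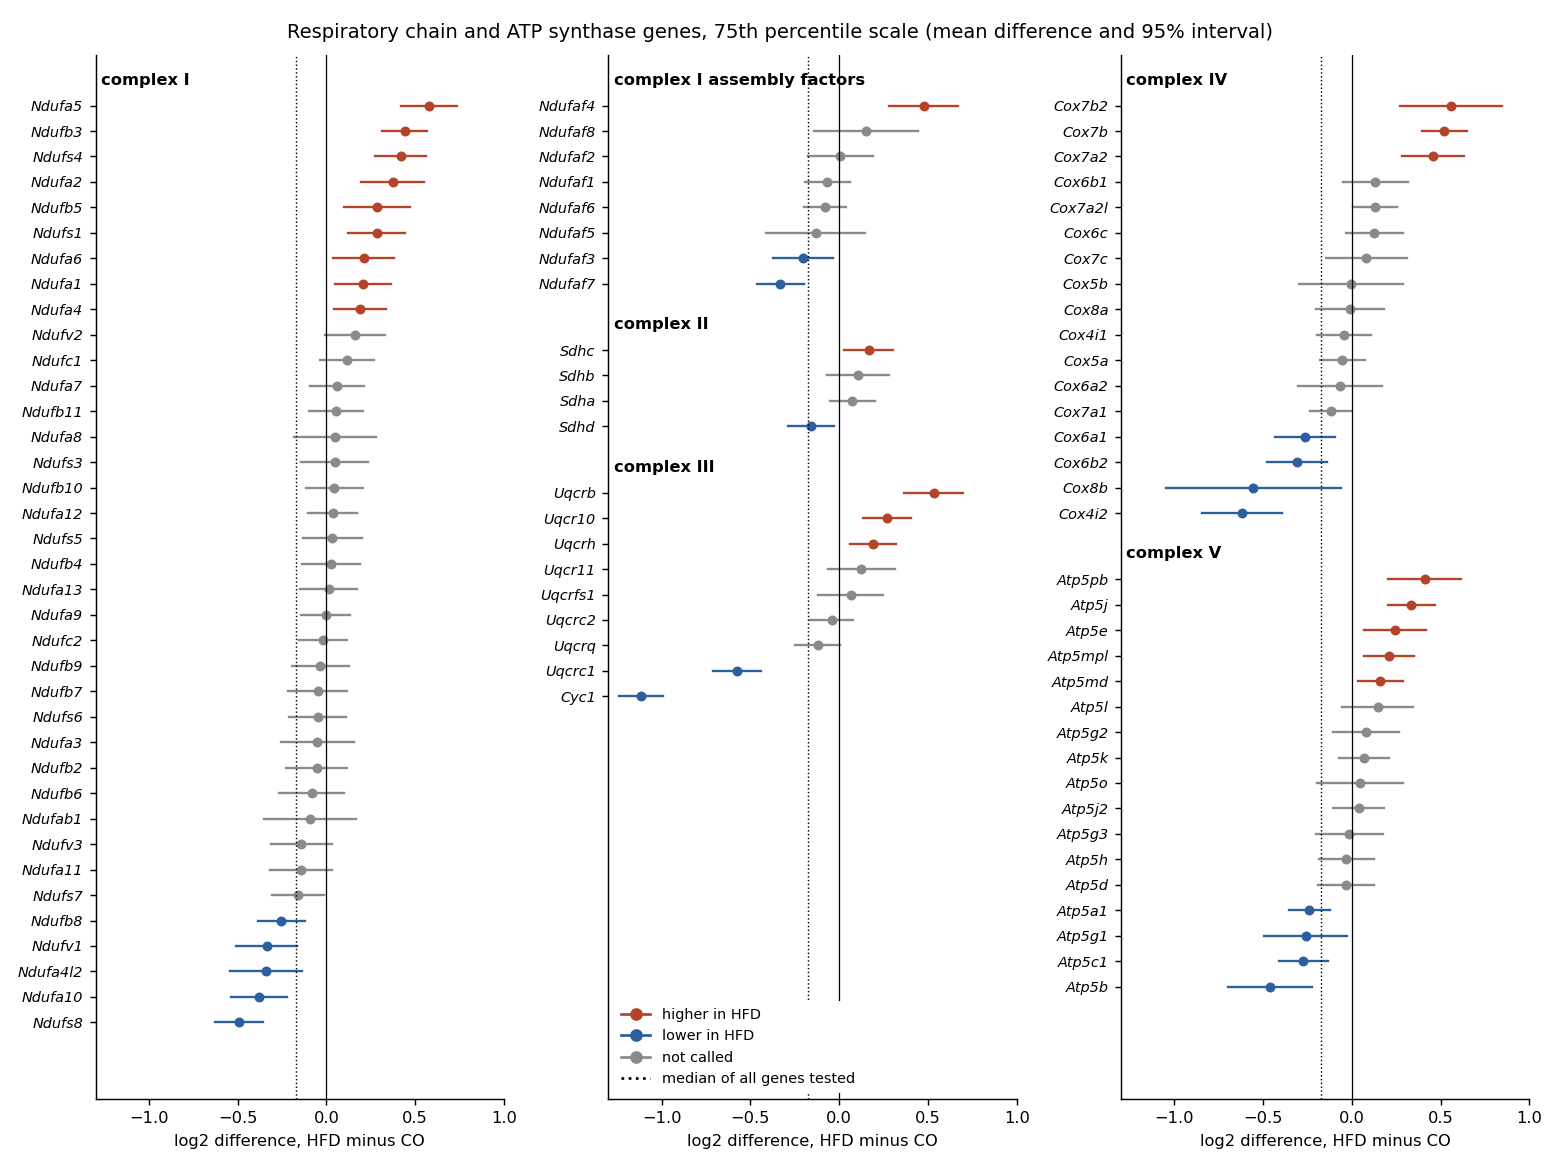
Difference of 92 of the 93 members (points, log2 signal in HFD minus CO samples) with its 95% interval (lines), grouped by complex and coloured by the call. The dotted line marks the median of all 17188 genes (-0.17), and higher and lower members stand side by side in every complex; on the spike-in scale all 22 members coloured as higher lie below 0.

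Promoters are shown for called members whose window holds a motif long linked to mitochondrial genes, to set the letters of higher and lower members side by side. RefSeq windows of build GRCm38.p6, spanning the bases around the annotated start site, were matched to 76 of the 93 members. The windows below belong to the pairs of members with the largest difference in each direction among those with a match and no probe called the other way, which leaves out Ndufaf4 (higher by 0.48, with an NRF1 match). Capitals mark the match, which is that of nuclear respiratory factor 1 (NRF1, the palindrome seen in capitals) in Uqcrc1, of GA-binding protein (GABP, CCGGAAG) in Ndufs8 and of YY1 (AAGATGGC) in Atp5pb and Ndufs4, each searched on both strands.
Uqcrc1 (lower, chr9:108936398-108936697, + strand): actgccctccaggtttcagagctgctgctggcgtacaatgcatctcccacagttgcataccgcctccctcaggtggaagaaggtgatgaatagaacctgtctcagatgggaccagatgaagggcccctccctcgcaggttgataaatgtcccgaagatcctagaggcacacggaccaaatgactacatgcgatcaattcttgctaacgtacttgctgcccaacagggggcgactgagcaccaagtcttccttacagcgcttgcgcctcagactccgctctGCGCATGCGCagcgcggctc
Ndufs8 (lower, chr19:3912725-3913024, - strand): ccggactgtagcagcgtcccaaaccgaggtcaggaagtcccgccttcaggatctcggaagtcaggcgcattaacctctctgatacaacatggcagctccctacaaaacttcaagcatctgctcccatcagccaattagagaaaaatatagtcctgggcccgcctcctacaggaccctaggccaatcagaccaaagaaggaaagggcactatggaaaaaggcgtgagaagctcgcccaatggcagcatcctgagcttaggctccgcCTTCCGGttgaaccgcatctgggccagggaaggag
Atp5pb (higher, chr3:105959214-105959513, - strand): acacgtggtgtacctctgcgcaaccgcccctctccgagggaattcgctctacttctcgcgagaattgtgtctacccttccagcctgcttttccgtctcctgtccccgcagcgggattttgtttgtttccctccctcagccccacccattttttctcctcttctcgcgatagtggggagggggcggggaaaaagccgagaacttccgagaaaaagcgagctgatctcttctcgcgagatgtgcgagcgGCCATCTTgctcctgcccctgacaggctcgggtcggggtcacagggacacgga
Ndufs4 (higher, chr13:114388045-114388344, - strand): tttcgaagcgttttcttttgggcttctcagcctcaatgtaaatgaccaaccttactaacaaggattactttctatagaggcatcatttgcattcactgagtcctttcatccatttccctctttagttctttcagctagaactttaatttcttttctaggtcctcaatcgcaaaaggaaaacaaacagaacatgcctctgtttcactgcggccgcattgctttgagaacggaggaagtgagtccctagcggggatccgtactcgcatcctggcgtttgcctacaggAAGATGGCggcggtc
The matches began 30 bases after the start site in Uqcrc1, 15 after it in Ndufs8 and 35 after it in Ndufs4, and 3 before it in Atp5pb.

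Over the members the NRF1 motif was present in the windows of 7 of 76 genes (9.21%), against 1.07% of all 27025 genes with a window. The GABP motif was in 25% of members and 9.93% of all genes, and the YY1 motif in 14.5% and 3.19%. The motif of estrogen-related receptors (ERR, TCAAGGTCA) was in 2 members, Atp5g3 and Sdhd, or 2.63%, against 126 of all 27025 genes, and the TATA box (TATAAA) in 10.5% of members and 15.7% of all genes. Each motif but that of ERR occurred among both higher and lower members. GABP was matched in 4 of 17 higher, 3 of 14 lower and 12 of 45 members not called, YY1 in 3, 1 and 7, and NRF1 in 1, 2 and 4 of the same groups. The median share of G and C was 58.4% in windows of members, against 52.8% over all genes with a window, a set not limited to genes tested here. The part of base composition in the motif shares was not tested. A match of letters is not a bound site, and none of these shares was tested.

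Complex I takes electrons from NADH with a core of subunits that bear the flavin and the iron-sulfur clusters, around which many accessory subunits are built. Of the 38 genes named for it, 9 were higher, 6 lower and 23 not called (median 0.02). The 38 include Ndufa4, called higher, and Ndufa4l2, called lower, which are counted neither as core nor as accessory and are given with complex IV. Among the 7 nuclear core genes 1 was higher and 3 lower (median -0.16), and among the 29 accessory genes 7 were higher and 2 lower (median 0.03). The median of all genes tested was -0.17, with 22.2% higher and 44.1% lower. These groups were formed with the values known, and the difference between them was not tested.

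Ndufs8, an iron-sulfur core subunit whose promoter is printed above, had 1.72 to 1.94 in the HFD samples (lowest and highest, median 1.84), against 2.42, 2.32, 2.30, 2.18 and 2.40 in the CO samples. Every HFD sample lay below every CO sample, with a difference of -0.49 ± 0.06 (SE, adjusted p = 3.20e-05 by limma). Ndufv1, which binds NADH and the flavin, had 4.74 to 4.95 in HFD samples (median 4.91), against 5.02, 5.39, 5.08, 5.20 and 5.36 in CO samples, and differed by -0.34 ± 0.08 without overlap (adjusted p = 0.00261). The large iron-sulfur subunit Ndufs1 went the other way within the same core. It had 3.88 to 4.31 in HFD samples (median 4.09), against 3.83, 3.71, 3.82, 3.93 and 3.78 in CO samples, so that the groups overlapped at 1 end, and the difference was 0.28 ± 0.07 (adjusted p = 0.00519). The 3 core genes not called had differences of -0.16 to 0.16. Ndufs7 (-0.16) was called lower with normexp background correction (-0.29, adjusted p = 0.0161), with slide as a random block and with the mean over probes. It was also called lower without CO replicate 4 or HFD replicate 1 (-0.20 and -0.19). Ndufv2 (0.16) was called higher with normexp (0.27, adjusted p = 0.0275), under scaling to the median (0.22) and without CO replicate 5 (0.21).

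Among the accessory subunits Ndufa5 was highest relative to CO. Its values were 4.65 to 5.01 in HFD samples (median 4.82), against 4.32, 4.15, 4.35, 4.15 and 4.33 in CO samples. No HFD sample reached down to the CO range, and the difference was 0.58 ± 0.07 (adjusted p = 3.23e-05). Ndufb3, of the membrane arm, had 3.76 to 3.94 in HFD samples (median 3.86), against 3.32, 3.44, 3.38, 3.37 and 3.54 in CO samples, and rose by 0.44 ± 0.06 (adjusted p = 4.76e-05). Ndufs4, a late-added subunit whose loss causes Leigh syndrome in people, had 3.42 to 3.71 in HFD samples (median 3.50), against 3.20, 3.05, 3.14, 3.00 and 3.14 in CO samples. It was higher by 0.42 ± 0.07 without overlap (adjusted p = 1.79e-04). Ndufa2 was the fourth accessory gene with separate groups and a higher level in HFD samples, at 0.37 ± 0.08.

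The accessory subunit Ndufa10 was lower in HFD samples, with 2.38 to 2.80 (median 2.55), against 3.00, 2.90, 2.92, 2.89 and 2.96 in CO samples. The groups did not overlap, and the difference was -0.38 ± 0.07 (adjusted p = 7.25e-04). Ndufb8 was lower, at -0.25 ± 0.06, also without overlap, but had -0.19 under scaling to the median, where its adjusted p just missed the threshold. Of the 20 accessory genes not called, Ndufab1, the mitochondrial acyl carrier protein, had a difference of -0.09 and Ndufa9 of 0.00.

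Of the 8 assembly factors, Ndufaf7, a mitochondrial methyltransferase, was lower. It had 1.78 to 1.92 in HFD samples (median 1.85), against 2.33, 2.16, 2.22, 2.03 and 2.16 in CO samples. The samples of the groups were apart, and the difference was -0.33 ± 0.06 (adjusted p = 4.71e-04). Ndufaf3 and Ndufaf4, partners in an early assembly step, had differences of opposite sign, -0.20 ± 0.08 (adjusted p = 0.0330) and 0.48 ± 0.09 (adjusted p = 6.18e-04). The call of Ndufaf3 was lost when CO replicate 1, 2 or 5 or HFD replicate 2, 3 or 6 was left out, with adjusted p of 0.0559 to 0.0845, and also under scaling to the median (-0.14, adjusted p = 0.226) and with normexp (-0.11, adjusted p = 0.337). With replicate number as a block Ndufaf3 was not called either (-0.20, adjusted p = 0.0871). Ndufaf4 had probes in conflict, since its brightest probe was higher without overlap and its other probe was lower, at -0.27 (adjusted p = 0.00532), and the mean of both gave 0.10 (adjusted p = 0.203).

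Complex II, succinate dehydrogenase, also belongs to the citric acid cycle. Its 4 genes moved little. Sdhc, a membrane anchor, was higher by 0.17 ± 0.06 (adjusted p = 0.0357), with 2.79 to 2.98 in HFD samples (median 2.87), against 2.75, 2.70, 2.65, 2.56 and 2.86 in CO samples. Sdhd, the other anchor, was lower, at -0.16 ± 0.06 (adjusted p = 0.0352), with 3.07 to 3.20 in HFD samples (median 3.14), against 3.39, 3.21, 3.32, 3.18 and 3.41 in CO samples. Each pair of groups overlapped. Neither call held in every fit that left out 1 array, since Sdhc was lost without CO replicate 2, 3 or 4 or HFD replicate 2, 4 or 6 (adjusted p of 0.0573 to 0.0817) and Sdhd without CO replicate 1, 3 or 5 or HFD replicate 2, 3 or 6 (0.0631 to 0.0868). Sdhc was also lost with normexp (0.14, adjusted p = 0.207) and with the mean over probes (0.09, adjusted p = 0.146), and Sdhd with quantile normalization (-0.11, adjusted p = 0.123), scaling to the median (-0.09, adjusted p = 0.350) and normexp, where it changed sign (0.027, adjusted p = 0.871). With replicate number as a block neither Sdhc (0.14, adjusted p = 0.148) nor Sdhd (-0.15, adjusted p = 0.103) was called. The flavoprotein Sdha (0.07, interval -0.05 to 0.20) and the iron-sulfur protein Sdhb (0.11, interval -0.07 to 0.28) were not called, but Sdhb was without HFD replicate 2 (0.16, adjusted p = 0.0484).

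Complex III moves electrons from ubiquinol to cytochrome c through cytochrome b, the Rieske protein and cytochrome c1. It held the largest decrease of the 93 members, with 3 of its 9 genes higher, 2 lower and 4 not called. Cyc1, which encodes cytochrome c1, had 3.68 to 3.89 in HFD samples (median 3.73), against 4.91, 4.87, 4.86, 4.74 and 4.93 in CO samples. The gap between the groups was wider than the range within either. The difference was -1.11 ± 0.06, or 2.17-fold lower in HFD samples (adjusted p = 1.00e-07), and it was between -1.15 and -1.10 in the 11 fits that each left out an array. Cyc1 had 1 probe, so no other probe bears on it. The Rieske gene Uqcrfs1, its catalytic partner, differed by 0.06 (interval -0.12 to 0.25).

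Uqcrc1, a core protein of the matrix side, had 2.32 to 2.60 in HFD samples (median 2.51), against 2.98, 3.19, 3.03, 3.04 and 3.11 in CO samples. Every HFD sample was lower, with a difference of -0.58 ± 0.06 (adjusted p = 1.18e-05). Uqcrc2, the other core protein, differed by -0.04 (interval -0.16 to 0.08).

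The small subunits of complex III that were called were higher. Uqcrb had 3.75 to 4.07 in HFD samples (median 3.91), against 3.46, 3.23, 3.43, 3.29 and 3.47 in CO samples, without overlap and with a difference of 0.53 ± 0.08 (adjusted p = 8.91e-05). Each of its 3 probes was called, at 0.53, 0.60 and 0.53. Uqcr10 was higher by 0.27 ± 0.06 (adjusted p = 0.00249) and Uqcrh, the hinge protein that contacts cytochrome c1, by 0.19 ± 0.06 (adjusted p = 0.0149), both without overlap. With quantile normalization Uqcrh had 0.08 and was not called (adjusted p = 0.241). With replicate number as a block Uqcrh had 0.19 and was not called either (adjusted p = 0.0515). Uqcr11 (0.13) and Uqcrq (-0.12) were not called, but Uqcrq was with quantile normalization (-0.18, adjusted p = 0.00978) and without CO replicate 4 (-0.16, adjusted p = 0.0162).

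**Figure D2:**
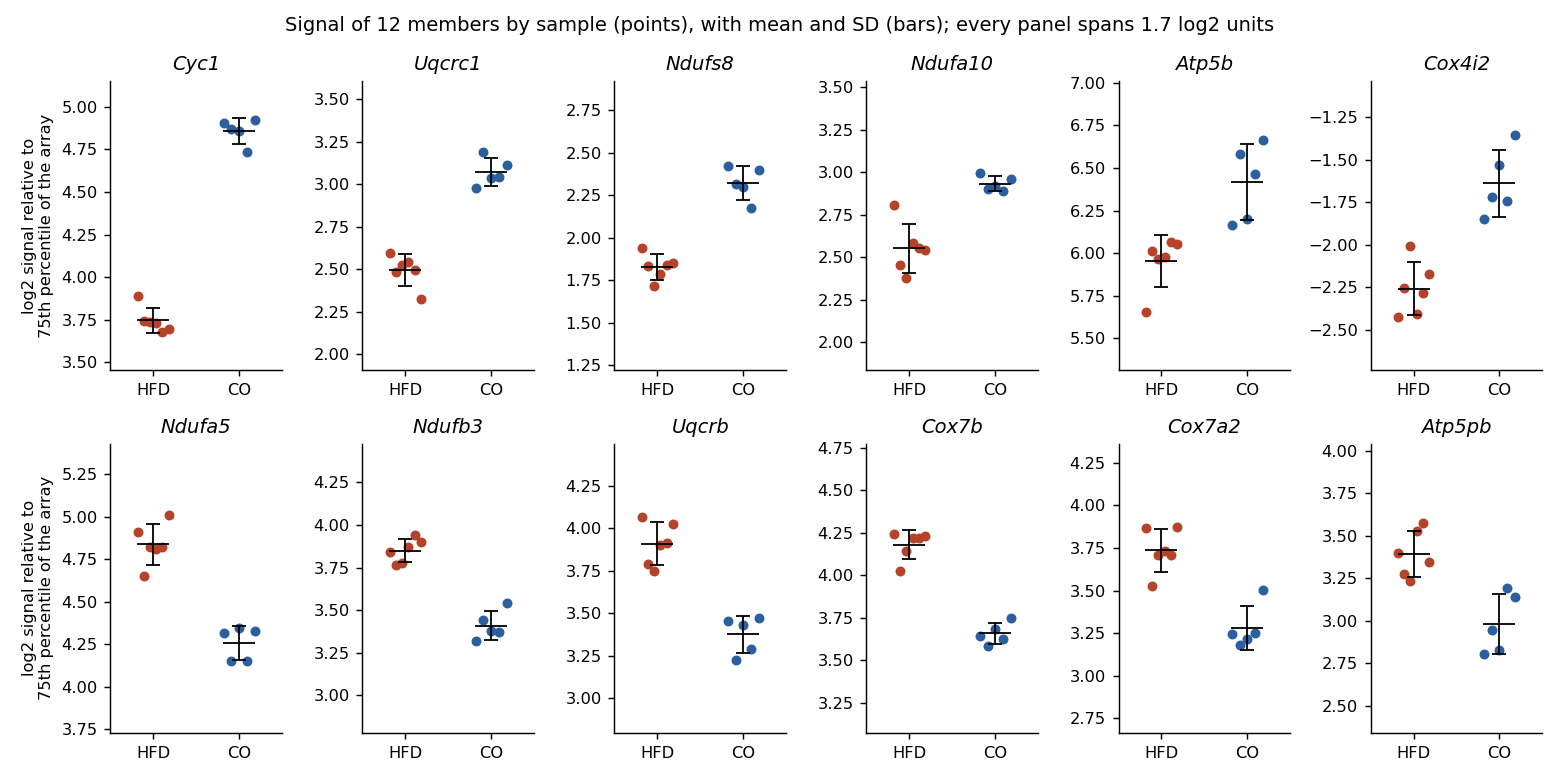
Log2 signal relative to the 75th percentile of the array in each of 6 HFD and 5 CO samples (points) for 12 called members, with group mean and SD (bars). The groups do not overlap in any panel, and the upper row is lower in HFD and the lower row higher. On the spike-in scale the HFD minus CO difference of each member of the lower row is negative as well. Of that row only Ndufb3 and Cox7a2 are called there.

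Complex IV, cytochrome c oxidase, reduces oxygen, and several of its nuclear subunits come in isoforms used by different tissues. Of its 17 genes 3 were higher, 4 lower and 10 not called (median -0.01). The broadly expressed isoforms Cox4i1, Cox6b1 and Cox8a were not called (-0.05, 0.13 and -0.01), but Cox4i1 was with quantile normalization (-0.15, adjusted p = 0.0223) and Cox6b1 with normexp background correction (0.33, adjusted p = 0.0194). Cox6a1, the isoform of most tissues, was lower, at -0.26 ± 0.08 without overlap (adjusted p = 0.0106), but had -0.20 with adjusted p = 0.0757 under scaling to the median and -0.17 with adjusted p = 0.124 with normexp.

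Cox7b had 4.02 to 4.24 in HFD samples (median 4.22), against 3.65, 3.58, 3.68, 3.63 and 3.75 in CO samples. The groups were apart, and the difference was 0.52 ± 0.06 (adjusted p = 1.35e-05). Cox7a2, the isoform of most tissues, had 3.53 to 3.88 in HFD samples (median 3.72), against 3.24, 3.18, 3.22, 3.25 and 3.50 in CO samples, where the fifth sample came near the HFD range. It was higher by 0.46 ± 0.08 (adjusted p = 3.82e-04). Its muscle counterpart Cox7a1 (-0.12) was not called, though it was with quantile normalization (-0.13, adjusted p = 0.0419), with slide as a random block (-0.12, adjusted p = 0.0390), by the exact Mann-Whitney test (adjusted p = 0.0478) and without CO replicate 1 or 4 (-0.14 and -0.15, adjusted p of 0.0498 and 0.0275). Cox7a2l, which takes part in joining complexes III and IV, was not called either (0.13), but was under scaling to the median (0.19, adjusted p = 0.0467), with slide as a random block (0.13, adjusted p = 0.0400), by the exact Mann-Whitney test (adjusted p = 0.0478) and without CO replicate 5 or HFD replicate 2 (0.15 in both, adjusted p of 0.0373 and 0.0344).

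Of the isoforms best known from other tissues, Cox4i2, Cox6b2, Cox7b2 and Cox8b lay below the 75th percentile on all arrays, whereas the muscle isoforms Cox6a2 and Cox7a1 had means above it. Cox4i2, the hypoxia-responsive isoform known from lung and from brain pericytes, had -2.42 to -2.01 in HFD samples (median -2.27), against -1.85, -1.72, -1.53, -1.75 and -1.35 in CO samples. All HFD samples were lower, at -0.62 ± 0.10 (adjusted p = 2.73e-04). Cox6b2, a testis isoform, was lower, at -0.31 ± 0.08 (adjusted p = 0.00440) and Cox7b2, known from testis, higher by 0.56 ± 0.13 (adjusted p = 0.00288), each with overlap. With normexp Cox7b2 had 0.48 and was not called (adjusted p = 0.0785). The muscle isoform Cox8b had -4.01 to -2.79 in HFD samples (median -2.92), against -2.58, -2.40, -2.34, -2.70 and -3.01 in CO samples. Its difference of -0.55 ± 0.23 (adjusted p = 0.0471) was -0.38 without HFD replicate 1, and the call was lost without any 1 of CO replicates 1 to 4 or HFD replicates 1, 5 and 6 (adjusted p of 0.0586 to 0.103), as it was under scaling to the median (-0.49, adjusted p = 0.0600), with normexp (-0.41, adjusted p = 0.158) and with no filter on dim probes (adjusted p = 0.0557). The muscle isoform Cox6a2 was not called (-0.07).

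Markers of the cells in which such isoforms are known were read beside them, where 22.2% of all genes tested were higher and 44.1% lower. Of 10 endothelial and pericyte markers 5 were higher and 3 lower, and their mean level was -0.20 to 0.06 in HFD samples, against -0.26 to -0.11 in CO samples, with every marker above background. The higher ones were Pdgfrb (0.42), Rgs5 (0.41), Slco1a4 (0.91), Cdh5 (0.63) and Flt1 (0.34). The lower ones were Kdr (-0.75), Pecam1 (-0.61) and Cldn5 (-0.57). Ndufa4l2, a relative of Ndufa4 also known from pericytes, was lower (-0.34 ± 0.09, adjusted p = 0.00659). With normexp Ndufa4l2 had -0.17 and was not called (adjusted p = 0.258). The part of these cells in the levels of Cox4i2 and Ndufa4l2 was not tested. Of 6 muscle and heart markers tested 1 was higher and 1 lower, Ckm and Actc1 did not pass the background filter, and myoglobin (Mb) had a mean of -5.18 in HFD samples and -5.20 in CO samples. Ndufa4, named for complex I but since assigned to complex IV, was higher by 0.19 ± 0.07 (adjusted p = 0.0248). That call was lost with quantile normalization (0.15, adjusted p = 0.0649), with normexp (0.05, adjusted p = 0.705) and without CO replicate 4 or HFD replicate 6 (0.14 and 0.17, adjusted p of 0.0525 and 0.0538). With replicate number as a block Ndufa4 was not called either (0.17, adjusted p = 0.0664).

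The ATP synthase has a catalytic F1 head, a stalk that holds it still and a ring in the membrane that turns. Of its 17 genes 5 were higher, 4 lower and 8 not called (median 0.04). In the F1 head 3 of 5 genes were lower, 1 was higher and 1 was not called (median -0.24). In the peripheral stalk 2 of 4 genes were higher and none lower (median 0.19), and among the 5 accessory membrane genes 2 were higher and none lower (median 0.14). Over all genes tested 22.2% were higher and 44.1% lower, with a median of -0.17. These groups too were formed with the values known, and the differences between them were not tested.

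Atp5b, the catalytic beta subunit, had 5.66, 6.01, 5.96, 5.98, 6.06 and 6.05 in HFD samples, against 6.17, 6.58, 6.20, 6.46 and 6.67 in CO samples. Each HFD sample was below each CO sample, and the difference was -0.46 ± 0.11 (adjusted p = 0.00286). Its partner Atp5a1, the alpha subunit, had 4.99 to 5.12 in HFD samples (median 5.07), against 5.28, 5.30, 5.23, 5.28 and 5.43 in CO samples, a difference of -0.24 ± 0.05 without overlap (adjusted p = 0.00175). Atp5c1, the gamma subunit that turns inside the head, was lower, at -0.27 ± 0.06 (adjusted p = 0.00244) and its other probe at -0.25 (adjusted p = 0.0453). Under scaling to the median Atp5c1 had -0.21 with adjusted p = 0.0588, and with normexp -0.22 with adjusted p = 0.0957. The small epsilon subunit, Atp5e, was higher by 0.24 ± 0.08 (adjusted p = 0.0183) but by 0.08 (adjusted p = 0.650) with normexp, and the delta subunit, Atp5d, differed by -0.04.

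In the stalk Atp5pb, subunit b, had 3.23 to 3.58 in HFD samples (median 3.37), against 2.81, 2.95, 2.83, 3.20 and 3.14 in CO samples. The highest CO sample stopped just short of the lowest HFD sample, and the difference was 0.41 ± 0.09 (adjusted p = 0.00232). Its other probe was also higher, by 0.51 (adjusted p = 1.10e-04). Atp5j, coupling factor F6, was higher by 0.33 ± 0.06 without overlap (adjusted p = 4.61e-04) but by 0.02 (adjusted p = 0.868) with normexp background correction. Atp5h (-0.03) and Atp5o (0.04), the d subunit and the protein that confers oligomycin sensitivity, were not called, though Atp5h was with quantile normalization (-0.14, adjusted p = 0.0321). The accessory Atp5mpl was higher by 0.21 ± 0.06 (adjusted p = 0.0133) and Atp5md by 0.16 ± 0.06 (adjusted p = 0.0284). The call of Atp5md was lost with normexp (0.13, adjusted p = 0.149) and without CO replicate 3 or 4 or HFD replicate 1 or 5 (0.13 to 0.16, adjusted p of 0.0523 to 0.0638). With replicate number as a block neither Atp5md (0.16, adjusted p = 0.0771) nor Atp5mpl (0.19, adjusted p = 0.0513) was called.

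Subunit c of the ring is made from Atp5g1, Atp5g2 and Atp5g3, which give the same mature protein. Atp5g1 was lower, at -0.26 ± 0.11 (adjusted p = 0.0480), a call that was lost without CO replicate 2, 4 or 5 or HFD replicate 1, 2, 3 or 6 (adjusted p of 0.0593 to 0.121), under scaling to the median (-0.20, adjusted p = 0.109), with normexp (-0.22, adjusted p = 0.126), with no filter on dim probes (adjusted p = 0.0556) and by the exact Mann-Whitney test (adjusted p = 0.0768). Atp5g2 (0.08, interval -0.11 to 0.26) and Atp5g3 (-0.01, interval -0.21 to 0.18) were not called.

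More than 1 probe was tested for 24 members. Over all 124 probes of the members 28 were called higher and 23 lower, while 67.1% of all probes tested were called. The 31 probes other than the brightest gave 6 higher and 5 lower calls. Of 7 members with at least 2 called probes, Ndufaf4 was the 1 whose probes opposed each other (14.3%), against 371 of 2434 such genes in all (15.2%). Calls of other probes where the brightest gave none came from Ndufv3 (-0.56), Sdhb (-0.21) and Ndufaf5 (-0.25), all lower. The second probe of Ndufb5 had -0.07 and was not called, against 0.29 for the brightest, and the mean of both gave 0.11 (adjusted p = 0.157). Ndufv3 was called with the mean over probes (-0.35, adjusted p = 1.13e-04), with quantile normalization (-0.23, adjusted p = 0.0120) and without CO replicate 4 (-0.21, adjusted p = 0.0117), against -0.14 for its brightest probe.

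**Figure D3:**
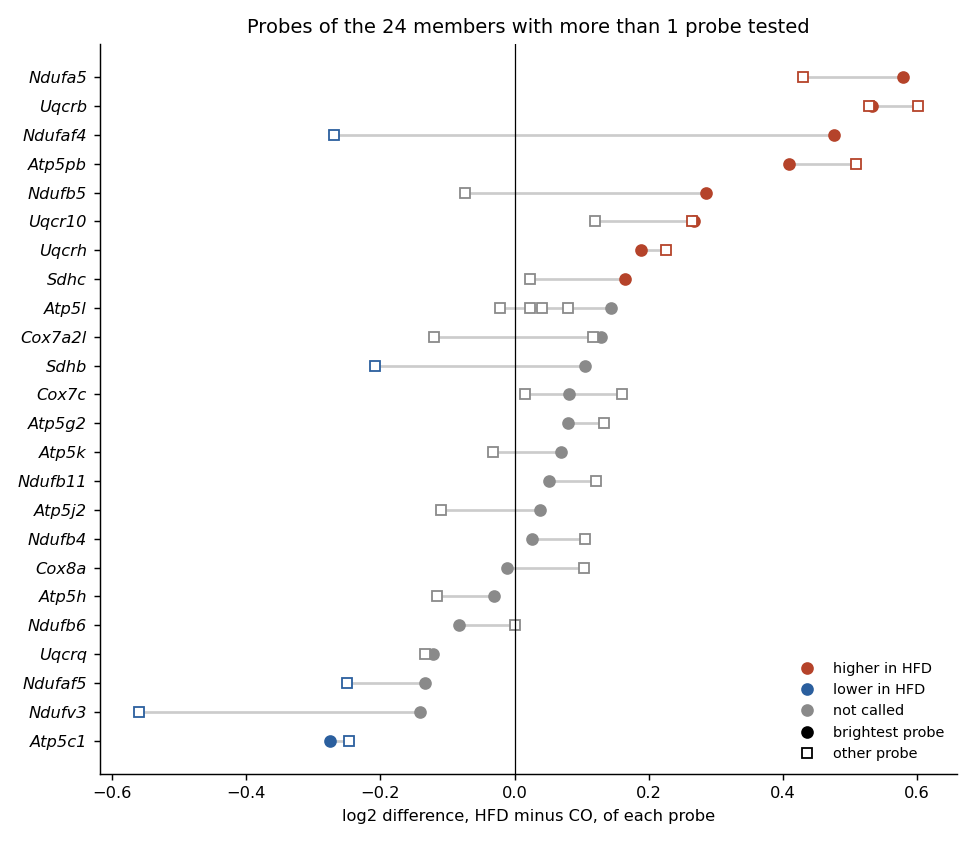
Difference (log2 signal in HFD minus CO samples) of each probe of the 24 members with more than 1 tested, the brightest filled and the others open, coloured by the call. Uqcrb, Ndufa5 and Atp5pb have all probes on the right, and Ndufaf4 has a probe called on each side; spike-in scaling puts the brightest probe of every member below 0 here.

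Within each group the members shifted together from array to array. On the 75th percentile scale CO replicate 5 was above the CO mean by 0.11 (median over members, 82 of 93 above), and CO replicate 4 below it, at -0.09. HFD replicate 2 lay at -0.10, with 10 of 93 members above the HFD mean. Over all genes these arrays were at 0.03, -0.02 and 0.00. The shift of CO replicate 5 was seen in every complex, at 0.08 to 0.12, and that of HFD replicate 2 was -0.08 to -0.12 in every set but complex II, at -0.02. CO replicate 5 had the lowest 75th percentile of signal of the CO arrays (2216 intensity units) and CO replicate 4 the highest (2932), and HFD replicate 2 the highest of the HFD arrays (3447). With quantile normalization the shifts were 0.03 for CO replicate 5, -0.01 for CO replicate 4 and -0.07 for HFD replicate 2, and the part of brightness in them was not tested.

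**Figure D4:**
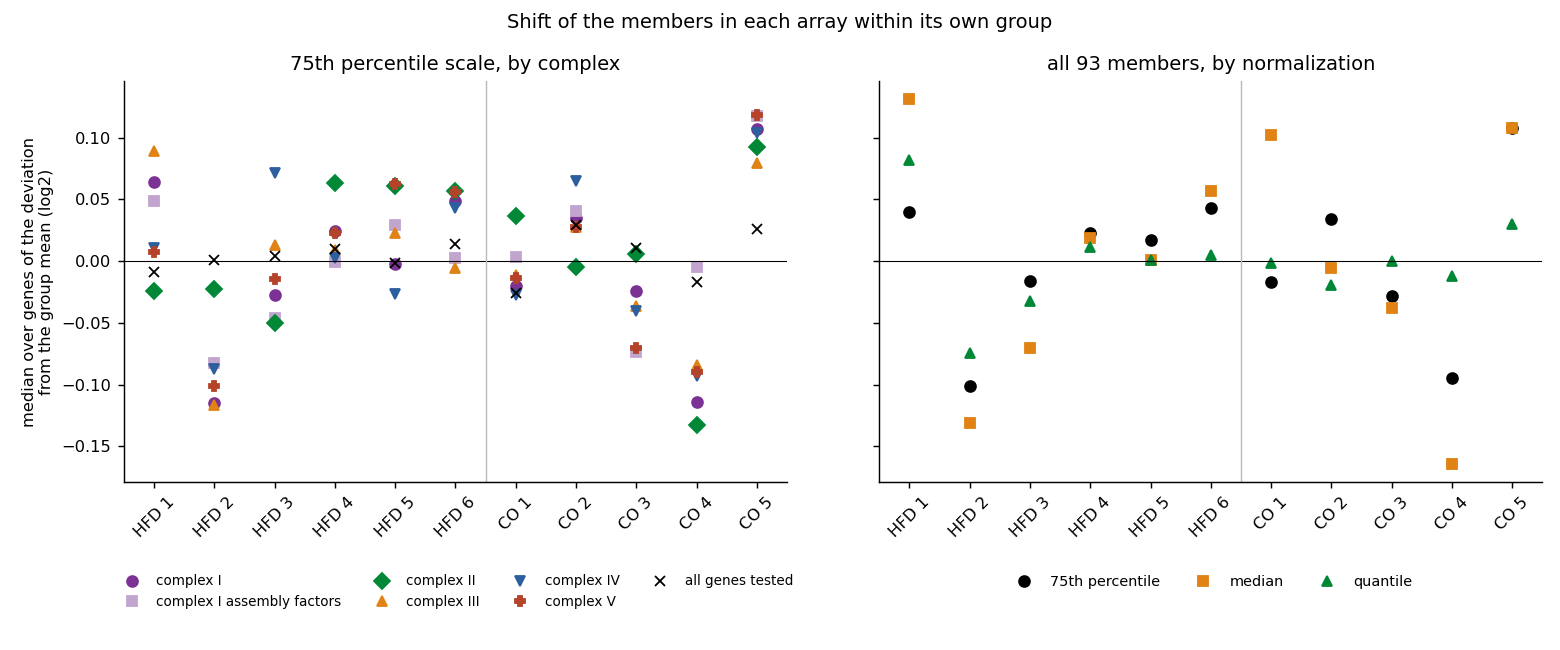
Median deviation of the members from the mean of their own group (log2) on each of the 6 HFD and 5 CO arrays, by complex on the 75th percentile scale (left, crosses for all genes) and over all 93 members under 3 normalizations (right). CO 5 stands above 0 and HFD 2 below 0 in all complexes on the left, and quantile normalization brings CO 4 and CO 5 close to 0.

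Other genes of the pathway were read from lists chosen with results known. Beside the counts of each list below, 22.2% of all genes tested were higher and 44.1% lower, with a median of -0.17. No list was tested against these shares. Of 43 further assembly factors tested 11 were higher and 17 lower (median -0.03). Foxred1, needed for complex I, was lower, at -0.91, the heme A synthesis gene Cox10 at -1.29 and the complex III factor Uqcc1 at -0.70. The probe of Cox10 was dim, with a mean of -4.64 in HFD samples and -3.35 in CO samples. Lrpprc and Slirp, which together stabilize mitochondrial mRNA, were higher by 0.67 and 0.85. Lyrm7 and Cox17 did not pass the background filter.

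Of 17 citric acid cycle and pyruvate dehydrogenase genes 4 were higher and 6 lower (median -0.04). Citrate synthase (Cs) was lower, at -0.43, and all 3 subunit genes of NAD-dependent isocitrate dehydrogenase were lower, at -0.36 for Idh3b, -0.28 for Idh3a and -0.20 for Idh3g. Sucla2, of the ATP-forming succinyl-CoA ligase, was higher by 1.00 and Dld by 0.72. Of 19 genes for cytochrome c, ubiquinone synthesis and entry of electrons to ubiquinone, 4 were higher and 7 lower (median -0.12). Cytochrome c itself, Cycs, the partner that takes electrons from cytochrome c1, was not called (0.16, adjusted p = 0.0803). The ubiquinone synthesis genes Coq2, Coq4, Coq5, Coq6, Coq8a and Coq9 were lower, at -0.26 to -0.47, and Pdss1, which makes the side chain, was higher by 0.85.

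Of 18 regulators of mitochondrial biogenesis 5 were higher and 4 lower (median 0.03). Esrrg and Ppargc1b were higher by 0.88 and 0.65, and Esrra and the mitochondrial DNA polymerase Polg lower, at -0.53 and -0.60. Esrra and Esrrg encode estrogen-related receptors, whose motif was among those searched. Of the other factors with a motif searched, Gabpa was higher by 0.27 (adjusted p = 0.0247), while Nrf1 (-0.04) and Yy1 (-0.02) were not called. Tfam, the packaging factor of mitochondrial DNA, was not called either (0.12). These directions also refer to the 75th percentile scale.

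Cell type markers also differed between the HFD and CO arrays, where maternal diet and scanning session cannot be told apart. Their part in the values above was not tested. Over all genes tested 22.2% were called higher and 44.1% lower, and no marker list was tested against these shares. Of 10 neuron markers 6 were higher and none lower, and of 10 oligodendrocyte markers 1 was higher and 7 lower. Mean levels were 3.84 to 4.04 in HFD samples and 3.49 to 3.65 in CO samples for neuron markers, and 2.98 to 3.26 in HFD samples and 3.12 to 3.47 in CO samples for oligodendrocyte markers. Astrocyte markers gave 2 higher and 2 lower of 10, microglia markers 3 and 5 of 10, blood markers 0 and 4 of 5, choroid plexus and ependyma markers 0 and 2 of 9 and striatum markers 0 and 8 of 10. Of 18 hypothalamus markers 4 were higher and 1 lower, and among them Sim1 was well above background on 6 HFD arrays and 0 CO arrays, and Otp on 1 HFD array and 5 CO arrays. Mean levels of the striatum markers were -0.67 to 0.88 in HFD samples, against 0.08 to 2.36 in CO samples.

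The median difference by complex was 0.15 at most in size under every normalization but the spike-in scale. It was -0.07 for complex I assembly factors and 0.09 for complex II at the extremes of the 75th percentile scale, and -0.75 and -0.59 for the same sets on the spike-in scale. The distance of the members' median from that of all genes was 0.18 on both of these scales. Each of them subtracts 1 value per array, which cannot change that distance. It was 0.12 with quantile normalization and 0.085 with normexp background correction.

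**Figure D5:**
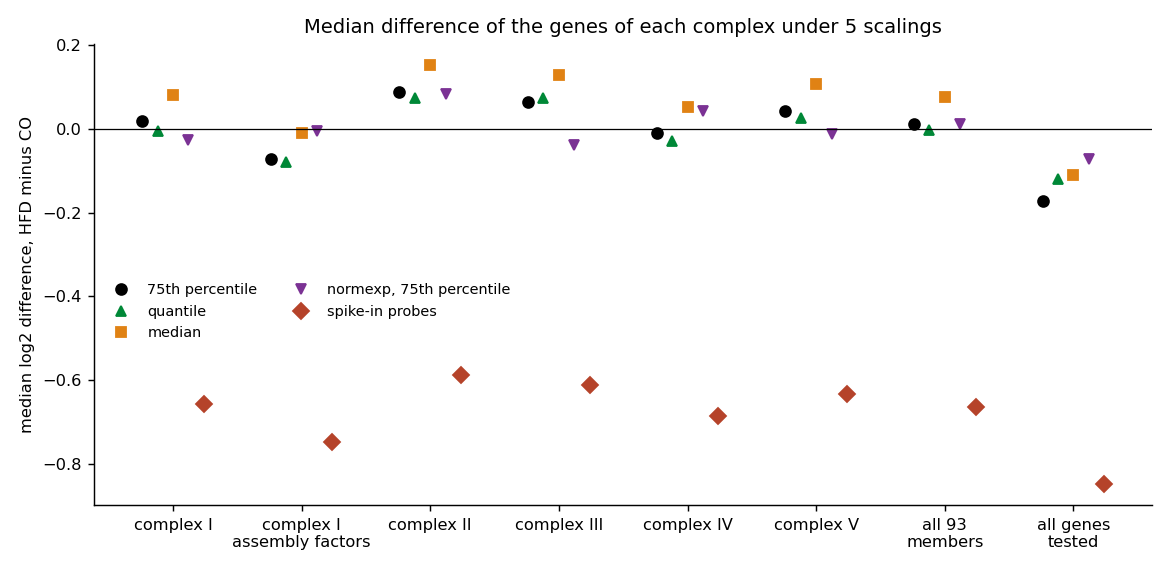
Median log2 difference (HFD minus CO) of the genes of each complex, of all 93 members and of all genes tested under 5 scalings. The first 4 scalings put every complex near 0, and spike-in scaling puts every complex between -0.59 and -0.75 and all genes at -0.85.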

How the data were processed

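The deposited files are scanner output of single-colour arrays, read here as background-subtracted, linear intensity made by the authors with Feature Extraction (10.8 in the submitters' processing notes, 10.7.3.1 in the file headers). How the authors normalized between arrays: not given in the sources used here.

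Control spots and spots the software marked as outliers were left out, spots of a probe were averaged on the log2 scale, and the log2 of the 75th percentile of each array was subtracted. Of 39429 probes, 26369 carried an accession found in a RefSeq gene table of GRCm38.p6 (19987 genes). A probe was kept when 5 or more of the 11 arrays showed it well above background, and a gene was read from its brightest probe over all arrays. The groups were compared by limma 3.58.1 in R 4.3.3 (data.table version 1.17.8, statmod 1.5.0), two-sided, with Benjamini-Hochberg adjustment over 17188 genes, or over 31790 probes for values of single probes, and a threshold of 0.05. The steps were tested on simulated data. The study's Rank Product test was not run.

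The members and lists were chosen with earlier results of these data known. Named are up to 3 members in each direction with the smallest adjusted p in each complex, every Sdh gene, the isoforms of complex IV and of subunit c and members with opposing probes; Ndufv1, Ndufs1 and the other genes in the text were added after their values were seen. Some genes that were counted are not reported here by name. Lists covered assembly factors, the citric acid cycle, cytochrome c and ubiquinone, biogenesis regulators, mitochondrially encoded subunits and markers of neurons, astrocytes, oligodendrocytes, microglia, endothelium and pericytes, blood, choroid plexus and ependyma, striatum, muscle and heart, and hypothalamus. Alternatives were other normalizations, background correction, filters and probe summaries, slide or replicate number as a block, an exact Mann-Whitney test and leaving out each array. The number of arrays limits the precision.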

Additional observations from a re-analysis of the deposited data

Results flagged for a closer look

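In 3 of 80 groups (40 named members in HFD and in CO), a single sample lay far from the rest of its group by Dixon's ratio of its gap to the whole range, a measure that chance alone passes in about 1 group of 20. For Cyc1 in HFD the ratio was 0.694, with HFD replicate 1 at 3.89 and the next sample at 3.74. For Atp5b in HFD it was 0.758, with the same replicate lowest, at 5.66 against 5.97 for the next. For Cox7a2 in CO it was 0.778, with CO replicate 5 highest, at 3.50 against 3.25.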

How the results depend on the processing

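Of the 41 called members, 11 kept their call and direction in all 21 alternatives, and 21 did so in all but spike-in scaling. The 11 were all lower in HFD, among them Atp5a1, Atp5b, Cox4i2, Cox6b2, Cyc1, Ndufa10, Ndufaf7, Ndufs8, Ndufv1 and Uqcrc1. On the spike-in scale all 22 higher members had a negative difference, so none of them could be among the 11. Higher members such as Ndufa5, Ndufs4 and Cox7b kept their call and direction in every alternative but that scale. There Ndufs4 was called lower (-0.26), and Ndufa5 and Cox7b were not called. Quantile normalization kept 38 of the 41 calls, scaling to the median 34, normexp background correction 27, the mean over probes 38, no filter on dim probes 39, the filter on all 11 arrays 41, slide as a random block 41 and the exact Mann-Whitney test 40. Fits that left out 1 array each kept 34 to 39. The replicate block kept 32 of the calls, with no change of sign. Samples that share a replicate number in HFD and CO had deviations with correlations of -0.103 to 0.179 over 5 pairs. In 2 of 5 samples the best correlation was with their own number, and so few pairs cannot exclude a pairing by number. Normexp was run on median signals, a choice made after the files were seen.

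With scaling to the median, 12 members were called lower, 7 lay below without overlap and 13 of their probes were called lower, against 19, 13 and 23. With spike-in scaling 0 members were called higher and 87 lower, 0 lay above and 84 below without overlap, 0 probes were higher and 114 lower, the median of the members was -0.66, and 946 genes were higher and 14380 lower, against 3819 and 7587. With normexp 4154 genes were called lower and 8 members lay above without overlap. The distance of the members' median from that of all genes was 0.12 with quantile normalization and 0.085 with normexp, against 0.18. The cause of these changes was not tested. Over the fits without 1 array, 18 to 25 members were higher and 15 to 21 lower, 13 to 17 lay above and 13 to 16 below without overlap, 3577 to 3813 genes were higher and 7051 to 7575 lower, the members' median was -0.02 to 0.06, and its distance from that of all genes 0.16 to 0.22.

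With spike-in scaling 48 members changed sign and were called on at least 1 of the 2 scales. Among those named in the text were Ndufs1 (-0.39), Ndufa2 (-0.30), Ndufa4 (-0.49), Ndufb5 (-0.39), Atp5e (-0.43), Atp5md (-0.52), Ndufs4 (-0.26), Ndufb3 (-0.24), Ndufa5 (-0.10), Ndufaf4 (-0.20), Sdha (-0.60), Sdhb (-0.57), Sdhc (-0.51), Uqcrh (-0.49), Uqcr10 (-0.41), Uqcrb (-0.14), Cox7a2l (-0.55), Cox6b1 (-0.54), Cox7a2 (-0.22), Cox7b (-0.15), Cox7b2 (-0.12), Atp5g2 (-0.60), Atp5mpl (-0.47), Atp5j (-0.34) and Atp5pb (-0.27). Of these Ndufa5, Ndufaf4, Uqcrb, Cox7b, Cox7b2 and Atp5pb were not called on the spike-in scale. Sdhd had 0.027 with normexp.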
